A study of Mus musculus with 16 samples.

Results

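Cytosolic ribosomal protein genes encode the protein parts of the ribosome that translates nuclear mRNAs. They were taken by symbol: the gene rows whose names follow the Rpl and Rps scheme, or equal Rpsa, and that are also present in the deposited normalized table, without Rps4l and without rows named as pseudogenes. The rule used no expression difference and selected 79 of 24421 genes in the count table. All 79 had enough counts to be tested, beside 11978 tested genes in all. They comprise 30 small subunit genes, 42 large subunit genes, 3 genes of the stalk and 4 paralogs of a canonical gene (Rps27l, Rpl36al, Rpl7l1 and Rpl22l1).

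Bulk RNA sequencing was done on cDC1s, the conventional dendritic cells that present antigen to CD8 T cells, sorted from the spleens of C57BL6 mice at steady state. The 16 libraries form 4 groups of 4: mature cDC1s from Xbp1flIre1fl mice, mature cDC1s from Xbp1fl mice, immature cDC1s from Xbp1flIre1fl mice and immature cDC1s from Xbp1fl mice. All 4 groups carry loxP-flanked alleles, of Xbp1 alone or of Xbp1 and of the gene for IRE1, and the condition is given as WT for every library. IRE1 is a sensor of unfolded proteins, and it splices the mRNA of Xbp1. The labels do not give the age of the mice, the sort gates or whether libraries of 1 group came from separate mice, so each p-value measures the spread between libraries. The question asked here is how the mRNAs of ribosomal proteins compare between mature and immature cDC1s and between the 2 genotypes.

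A ribosome holds about equal numbers of its different proteins, and their mRNAs are among the most abundant in a cell. Most of these mRNAs in mammals begin with a C followed by a run of pyrimidines, the 5′ terminal oligopyrimidine (TOP) motif, through which mTORC1 and LARP1 control their translation together. New ribosomal proteins are imported into the nucleus, escorted by chaperones and built into pre-ribosomes in the nucleolus, where RNA polymerase I makes the ribosomal RNA. In dendritic cells, maturation is known to remodel translation along with antigen presentation and migration.

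The starts of 8 of these genes show what the TOP rule looks like in this family. First come 4 canonical members, chosen from the 13 members that match it at the annotated base. The 4 paralogs follow, and none matches it there, though Rps27l and Rpl22l1 do within 5 bases. Most canonical members with a listed start did not match at that base either, among them Rpl36a and Rpl22. Each sequence is 30 bases long from RefSeq on build GRCm38.p6 (mm10), 5′ to 3′ on the strand of the gene. Its base 11 is the first transcribed base, and capitals mark the longest unbroken run of C and T at or near the start. In Rps27l that run ends before the start, and the match within 5 bases is in lower case.
Rps6, chr4:86857348-86857377, minus strand: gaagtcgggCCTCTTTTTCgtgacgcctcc
Rplp2, chr7:141447641-141447670, plus strand: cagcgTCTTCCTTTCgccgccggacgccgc
Rpl38, chr11:114668570-114668599, plus strand: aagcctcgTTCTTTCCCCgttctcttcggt
Rpl15, chr14:18270967-18270996, minus strand: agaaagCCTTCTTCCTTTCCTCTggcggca
Rps27l, chr9:66946076-66946105, plus strand: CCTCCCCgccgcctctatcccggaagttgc
Rpl36al, chr12:69184048-69184077, minus strand: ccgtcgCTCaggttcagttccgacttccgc
Rpl7l1, chr17:46782637-46782666, minus strand: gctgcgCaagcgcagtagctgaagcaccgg
Rpl22l1, chr3:28805498-28805527, plus strand: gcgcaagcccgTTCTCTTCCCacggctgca

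Of the 79 members, 59 had at least 1 start in the RefSeq promoter table. A C at the annotated start followed by at least 4 pyrimidines was present in 13 of these 59 (22.03%, exact 95% binomial interval 12.3 to 34.7%) and in 813 of 27025 genes of the table (3.01%). With the start allowed to lie within 5 bases of the annotated one, the counts were 29 of 59 (49.15%) and 5718 of 27025 (21.16%). The 300-base promoter, 250 bases before the start and 50 after it, held the ETS core CCGGAAG on either strand in 23 of 59 members (38.98%) against 9.93% of all genes. It held the YY1 core AAGATGGC in 6 of 59 (10.17%) against 3.19%. The 2 motifs can overlap, since the last letters of the ETS core are the first of the YY1 core, and a match describes letters only.

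Totals were 13948232 to 16572576 counts in mature libraries and 15083053 to 17000763 in immature libraries. Levels between genes are compared as TMM-scaled CPM, a count divided by the scaled library total in units of 1e+06, per kilobase of merged exons, which corrects for gene length. The most abundant member was Rplp0, the base of the stalk, with 876 ± 95.2 CPM per kb in mature and 825 ± 59.9 in immature cDC1s (SD, n = 8 each). Rplp1, also of the stalk, had 677 ± 84.9 CPM per kb in mature and 608 ± 64.9 in immature cells, below Rplp0 by more than 1 SD in both stages. Length matters for this order: per kilobase of the principal transcript Rpl13 came first, at 1314 CPM per kb in mature cells, against 395 per kilobase of merged exons.

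**Figure D1:**
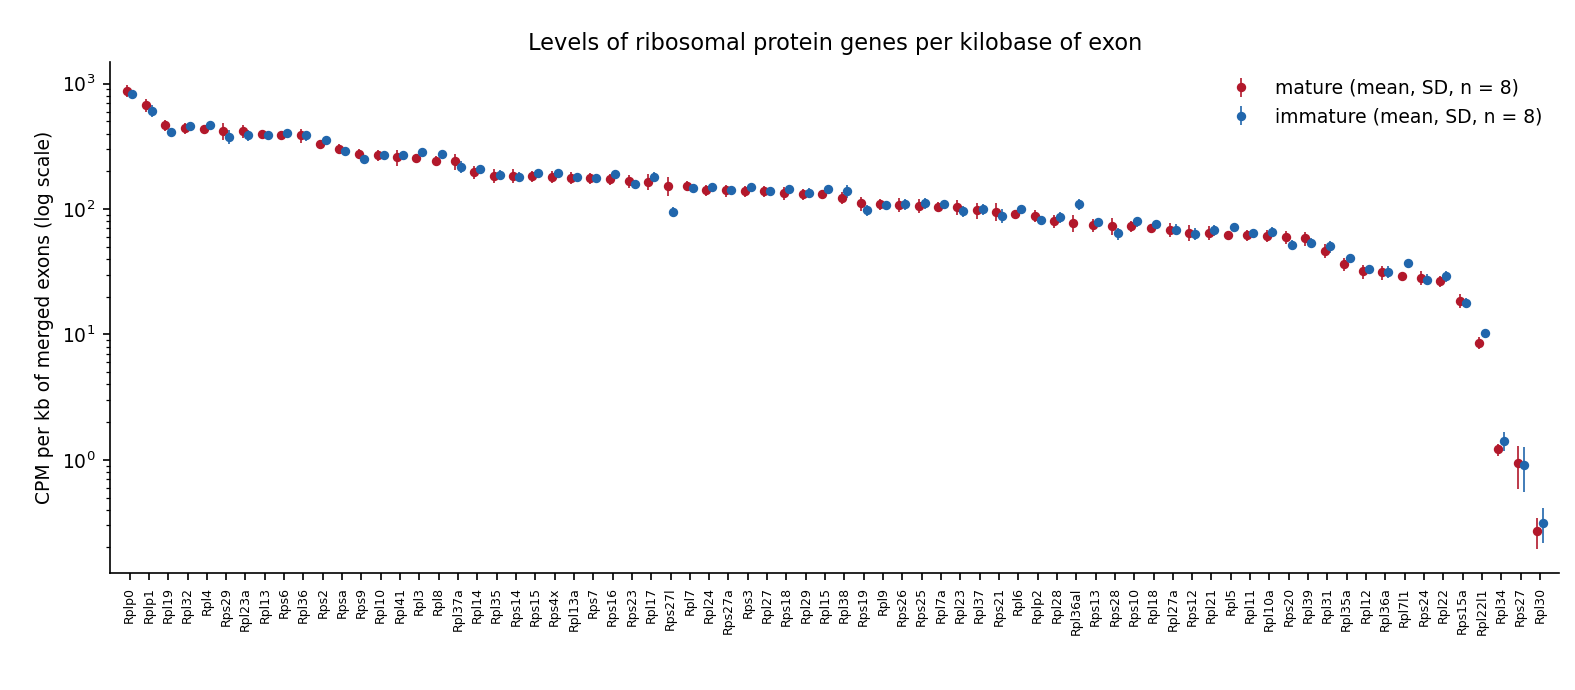
Mean level of 74 of the 79 ribosomal protein genes in mature (red) and immature (blue) cDC1s, in CPM per kilobase of merged exons on a log axis, with SD over 8 libraries each, ordered by the mature level. Levels decline gradually from 876 CPM per kb for Rplp0 in mature cells, and Rpl34, Rps27 and Rpl30 lie far below all others at 1.21, 0.942 and 0.268.

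Rpl34, Rps27 and Rpl30 were almost uncounted. Rpl34 had 1.21 ± 0.13 CPM per kb in mature and 1.41 ± 0.24 in immature cells, Rps27 had 0.942 ± 0.353 and 0.913 ± 0.355, and Rpl30 had 0.268 ± 0.0756 and 0.316 ± 0.0975. Rps27 received 5 to 24 counts in any library. The next lowest member, Rpl22l1, had 8.57 ± 0.91 CPM per kb in mature and 10.2 ± 0.8 in immature cells. Of the 50-base windows of the Rps27 principal transcript, 98.6% also occur in other annotated genes, 8 of which are pseudogenes. For Rpl34 and Rpl30 this share was 37.9% and 29.7%. Across the 78 members with a principal transcript the share ran from 0 to 98.6%, and its Spearman rho with the mean level was 0.153, a description over genes that share libraries. How reads shared between genes were counted is not given in the sources used here, so levels of ribosomal protein genes with many copies are uncertain, and for Rps27, Rpl34 and Rpl30 the values say little about the mRNA.

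Ribosomal protein mRNAs differed little between mature and immature cDC1s. Of the 79 members, 5 were higher and 12 lower in mature cells and 62 passed in neither direction, in edgeR's quasi-likelihood test with Benjamini-Hochberg adjustment over all 11978 genes (adjusted p under 0.05). That is 21.5% of members called, against 67.6% of all genes tested, with 33.4% of all genes higher and 34.2% lower in mature cells. The median log2 fold change, mature over immature, was -0.04 over the members and -0.01 over all genes. The middle of the distribution ran from -0.11 to 0.05 for the members and from -0.34 to 0.43 for all genes. A difference over 1.5-fold was fitted for 1 member (1.27%), Rps27l, against 31.3% of all genes. For 75 of 79 members (94.9%) the 95% interval of the fold lay within 1.5-fold either way, against 47.3% of all genes. The range over members was -0.51 to 0.70, and both ends were paralogs. Over the 75 other members it was -0.25 to 0.20.

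**Figure D2:**
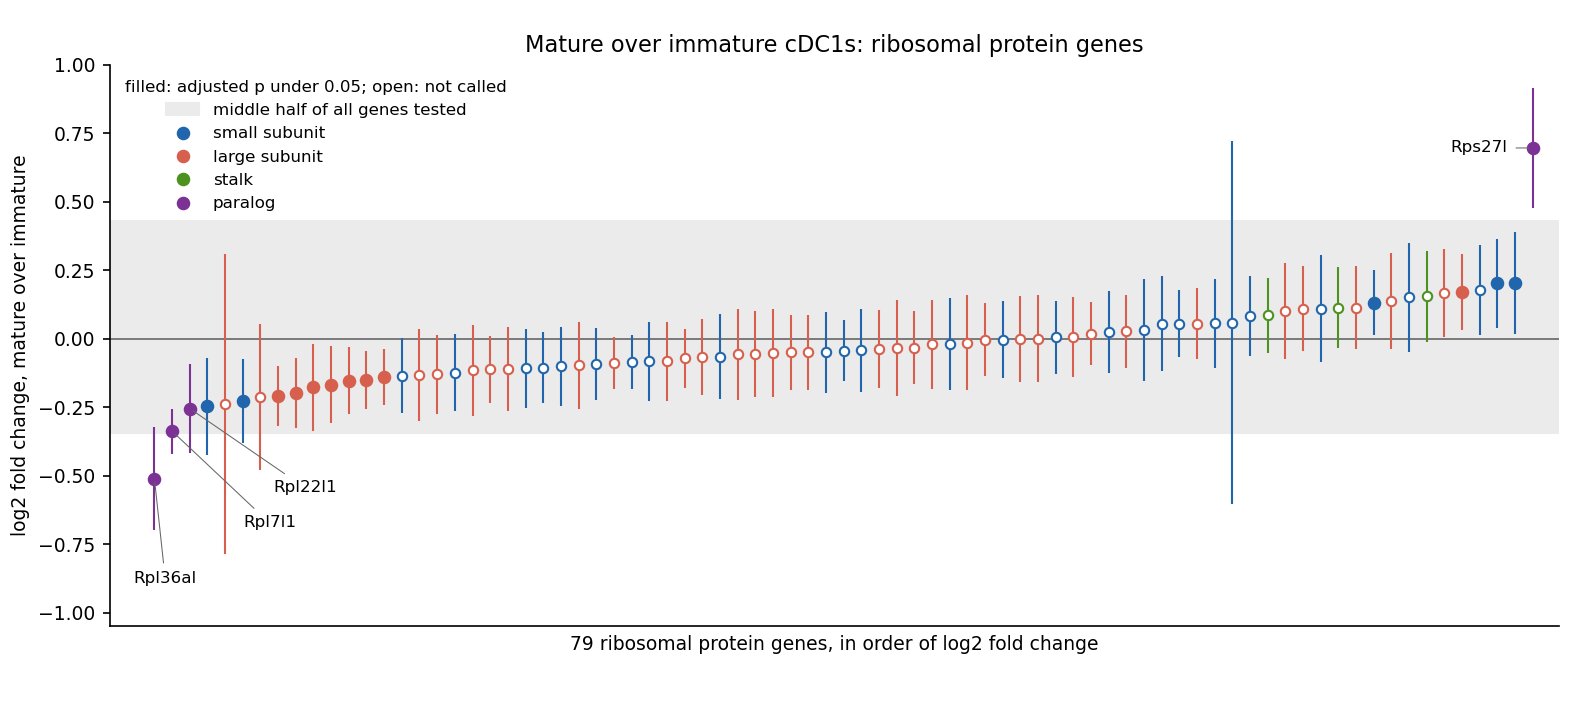
Log2 fold change, mature over immature, of the 79 ribosomal protein genes in increasing order, with 95% intervals, coloured by class, filled where the adjusted p was under 0.05. The grey band is the range from -0.34 to 0.43 that holds the central 50% of all genes tested. Of the paralogs, Rps27l lies above the band at 0.70 and Rpl36al below it at -0.51. The 2 widest intervals are those of the scarcely counted Rps27 and Rpl30.

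The count of members higher rested on single libraries. It was 10 without mature Xbp1fl replicate 4 and 8 without mature Xbp1flIre1fl replicate 4. It was 2 without mature Xbp1flIre1fl replicate 2, and 1 without mature Xbp1fl replicate 2 or 3, immature Xbp1fl replicate 1, mature Xbp1flIre1fl replicate 3 or immature Xbp1flIre1fl replicate 4. It was 3 without any one of 5 others: mature Xbp1flIre1fl replicate 1, immature Xbp1fl replicate 2 or 4, and immature Xbp1flIre1fl replicate 2 or 3. The count of members lower ran from 9 to 18, with 18 reached without mature Xbp1fl replicate 2. In all 16 such fits, Rps27l was called higher and 9 members were called lower, among them Rpl36al, Rpl7l1, Rpl22l1, Rpl5, Rpl8, Rpl3 and Rpl6. Without mature Xbp1flIre1fl replicates 2 and 4, which an earlier analysis of these data had singled out for low Ccr7, 5 members were higher and 13 lower.

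How many members were called depended on the scaling. Mature libraries had TMM factors from 0.886 to 1.00, against 1.06 to 1.12 for immature ones. The median of all genes was -0.01 with TMM, -0.13 with upper quartile scaling and -0.23 with library sizes only. The members' median stood 0.03 below the median of all genes under all 3 scalings. Relative to that median, 76 of 79 members lay within 1.25-fold and 78 within 1.5-fold under each of the 3. With library sizes only, 1 member was higher and 62 were lower, and with upper quartile scaling 1 was higher and 39 lower. The log2 fold change was positive for 30 of 79 members with TMM and for 1, Rps27l, with library sizes only. Over all genes, 3995 were higher and 4100 lower with TMM, 3213 and 5237 with upper quartile scaling, and 2712 and 6092 with library sizes only.

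Among the 30 small subunit genes, 3 were higher (Rps20, Rps28 and Rps9), 2 were lower and 25 were not called, with a median log2 fold change of -0.01. Rps20 had 196 to 291 CPM in mature libraries (median 246) and 182 to 241 in immature ones (median 218), ranges that overlap widely. Its log2 fold change was 0.20 (SE 0.08, adjusted p = 0.0273). Rps28, which lies where mRNA leaves the small subunit, had 100 to 157 CPM (median 127) in mature and 87.3 to 128 (median 111) in immature libraries, a log2 fold change of 0.20 (SE 0.09) at the very edge of the threshold (adjusted p = 0.04999). Rps9 differed by 0.13 (SE 0.06, adjusted p = 0.0473), with a mean of 694 ± 60.0 CPM in mature and 634 ± 41.5 in immature cells. With library sizes only, Rps20, Rps28 and Rps9 had log2 fold changes of -0.024, -0.023 and -0.095, so their direction depends on the scaling.

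Rps19, the gene most often mutated in Diamond-Blackfan anaemia in humans, did not pass, with 520 ± 67.5 CPM in mature and 460 ± 43.9 in immature cells (log2 fold change 0.18, SE 0.08, adjusted p = 0.0528).

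Other small subunit genes with known special roles did not pass either. Rps6, the substrate of S6 kinase below mTORC1, had 622 ± 47.5 CPM in mature and 641 ± 35.4 in immature cells (log2 fold change -0.04, adjusted p = 0.484). Rpsa, also known as the laminin receptor, had 958 ± 88.2 and 923 ± 58.2 (0.05, adjusted p = 0.419), and Rps26 had 168 ± 21.9 and 170 ± 17.3 (-0.02, adjusted p = 0.849), mature before immature. Further small subunit genes not called were Rps2, Rps3, Rps4x, Rps7, Rps10, Rps12, Rps13, Rps14, Rps15, Rps15a, Rps16, Rps18, Rps21, Rps23, Rps24, Rps25, Rps27, Rps27a and Rps29. Rps27 had a log2 fold change of 0.06 with an SE of 0.32, so a difference in it was not detectable at this depth.

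Among the 42 large subunit genes, 1 was higher (Rpl19), 7 were lower and 34 were not called, with a median log2 fold change of -0.05. The clearest was Rpl5, which with Rpl11 and 5S RNA forms the particle that binds MDM2 when ribosome assembly fails. Rpl5 had 221 to 276 CPM (median 239) in mature and 260 to 295 (median 286) in immature libraries, so only the upper mature libraries reach the immature range. Its log2 fold change was -0.21 (SE 0.05, adjusted p = 0.00164). Exons of Fam69a on the opposite strand cover 24.3% of the exon bases of Rpl5, and the strandedness of the counting is not given in the sources used here. Its partner Rpl11 did not pass, with 168 ± 16.5 CPM in mature and 174 ± 14.1 in immature cells (log2 fold change -0.05, SE 0.07, adjusted p = 0.508).

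Rpl8 and Rpl3, whose proteins lie next to the peptidyl transferase centre, also fell. Rpl8 had 274 to 372 CPM (median 324) in mature and 337 to 399 (median 384) in immature libraries (log2 fold change -0.20, SE 0.06, adjusted p = 0.00774). Rpl3 had 712 to 914 CPM (median 809) in mature and 847 to 973 (median 895) in immature libraries (-0.15, SE 0.05, adjusted p = 0.0138). The ranges of both genes overlap between stages. Rpl6 fell by 0.14 (SE 0.05, adjusted p = 0.0179) and Rpl15 by 0.15 (SE 0.06, adjusted p = 0.0258) on the log2 scale. Rpl35a, another gene of Diamond-Blackfan anaemia, fell by 0.17 (SE 0.07, adjusted p = 0.0347). Rpl38, required in mouse embryos for translation of Hox mRNAs, fell by 0.18 (SE 0.08, adjusted p = 0.0462), with 66.6 ± 7.0 CPM in mature and 75.3 ± 8.9 in immature cells. The calls for Rpl38 and Rpl35a were lost in 11 and 10 of the 16 fits that each left out 1 library, and that for Rpl15 in 2.

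Rpl19 was the single large subunit gene called higher, with 400 to 555 CPM (median 482) in mature and 375 to 466 (median 432) in immature libraries. Its log2 fold change was 0.17 (SE 0.07, adjusted p = 0.0309) with TMM but -0.056 with library sizes only. The call for Rpl19 was lost in 6 of the 16 fits that each left out 1 library. Rpl10, one of the last proteins to join the subunit, had 550 ± 55.8 CPM in mature and 552 ± 39.5 in immature cells (log2 fold change -0.004, adjusted p = 0.959). Rpl30 and Rpl34 had log2 fold changes of -0.24 (SE 0.26) and -0.21 (SE 0.13), from too few counts to show a difference of that size. Further large subunit genes not called were Rpl4, Rpl7, Rpl7a, Rpl9, Rpl10a, Rpl12, Rpl13, Rpl13a, Rpl14, Rpl17, Rpl18, Rpl21, Rpl22, Rpl23, Rpl23a, Rpl24, Rpl27, Rpl27a, Rpl28, Rpl29, Rpl31, Rpl32, Rpl35, Rpl36, Rpl36a, Rpl37, Rpl37a, Rpl39 and Rpl41.

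The 3 stalk genes, whose proteins recruit elongation factors to the ribosome, all had positive log2 fold changes with TMM, where none passed, and negative ones with library sizes only (Rplp1 -0.071, Rplp2 -0.11 and Rplp0 -0.14, of which Rplp0 passed with adjusted p = 0.0431). Rplp1 had 283 to 404 CPM (median 332) in mature and 254 to 343 (median 307) in immature libraries, with a log2 fold change of 0.16 (SE 0.08, adjusted p = 0.0921). Rplp2 had a log2 fold change of 0.11 (SE 0.07, adjusted p = 0.161) and Rplp0 of 0.09 (SE 0.07, adjusted p = 0.251). The 95% intervals of the fold of all 3 lay within 1.25-fold.

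The 4 paralogs were the members that differed most, and all 4 passed: Rps27l rose and Rpl36al, Rpl7l1 and Rpl22l1 fell. Their median log2 fold change was -0.30. Regardless of sign, the median was 0.42 for the paralogs and 0.37 for all genes tested, of which 67.6% were called. Rps27l, on chr9:66946086-66949516 (plus strand), is known in human and mouse cells as a gene induced by p53. It had 158, 127, 125 and 82.9 CPM in mature Xbp1flIre1fl libraries and 110, 121, 141 and 139 in mature Xbp1fl libraries, against 83.3, 83.6, 76.3 and 65.0 in immature Xbp1flIre1fl and 74.4, 72.2, 81.2 and 83.6 in immature Xbp1fl libraries. Every mature library but replicate 4 of Xbp1flIre1fl lies above all immature ones. The fold was 1.62 (95% interval 1.39 to 1.88), a log2 fold change of 0.70 (SE 0.10, adjusted p = 1.55e-05). In the list for p53 and nucleolar stress, 5 of 11 genes were higher, 4 lower and 2, Bax and Ccng1, not called. Of all genes tested, 33.4% were higher and 34.2% lower. A part of p53 in the level of Rps27l was not tested. Cdkn1a had 278 ± 67.8 CPM in mature and 25.2 ± 4.9 in immature cells (log2 fold change 3.47, adjusted p = 9.15e-11), and Mdm2 had 107 ± 16.2 and 65.3 ± 4.7 (0.71, adjusted p = 4.98e-07), while Trp53 itself, which encodes p53, had 101 ± 11.8 CPM in mature and 133 ± 8.3 in immature cells (-0.40, adjusted p = 2.75e-05).

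Rpl7l1, on chr17:46773907-46782672 (minus strand), is related to a yeast assembly factor of the large subunit. Rpl7l1 had 102, 98.5, 107 and 105 CPM in mature Xbp1flIre1fl and 93.9, 103, 102 and 105 in mature Xbp1fl libraries, against 130, 125, 127 and 134 in immature Xbp1flIre1fl and 128, 126, 135 and 126 in immature Xbp1fl libraries. It was the single member whose 8 mature and 8 immature libraries did not overlap, a separation shown by 33.0% of all genes tested. The fold was 0.791 (log2 fold change -0.34, SE 0.04, adjusted p = 5.67e-07).

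Rpl36al, on chr12:69182731-69184083 (minus strand), encodes nearly the same protein as the X-linked Rpl36a. It had 86.3 to 135 CPM (median 104) in mature and 122 to 166 (median 148) in immature libraries, with 1 mature library inside the immature range. The fold was 0.702 (log2 fold change -0.51, SE 0.09, adjusted p = 6.95e-05). The exons of Gm49383 on the same strand cover 24.5% of the exon bases of Rpl36al, so reads there cannot be told apart. Rpl22l1, on chr3:28805436-28807424 (plus strand), is the paralog that mouse Rpl22 is known to repress. It had 13.2 to 19.5 CPM (median 17.4) in mature and 18.7 to 24 (median 19.99) in immature libraries (log2 fold change -0.25, SE 0.08, adjusted p = 0.00714).

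**Figure D3:**
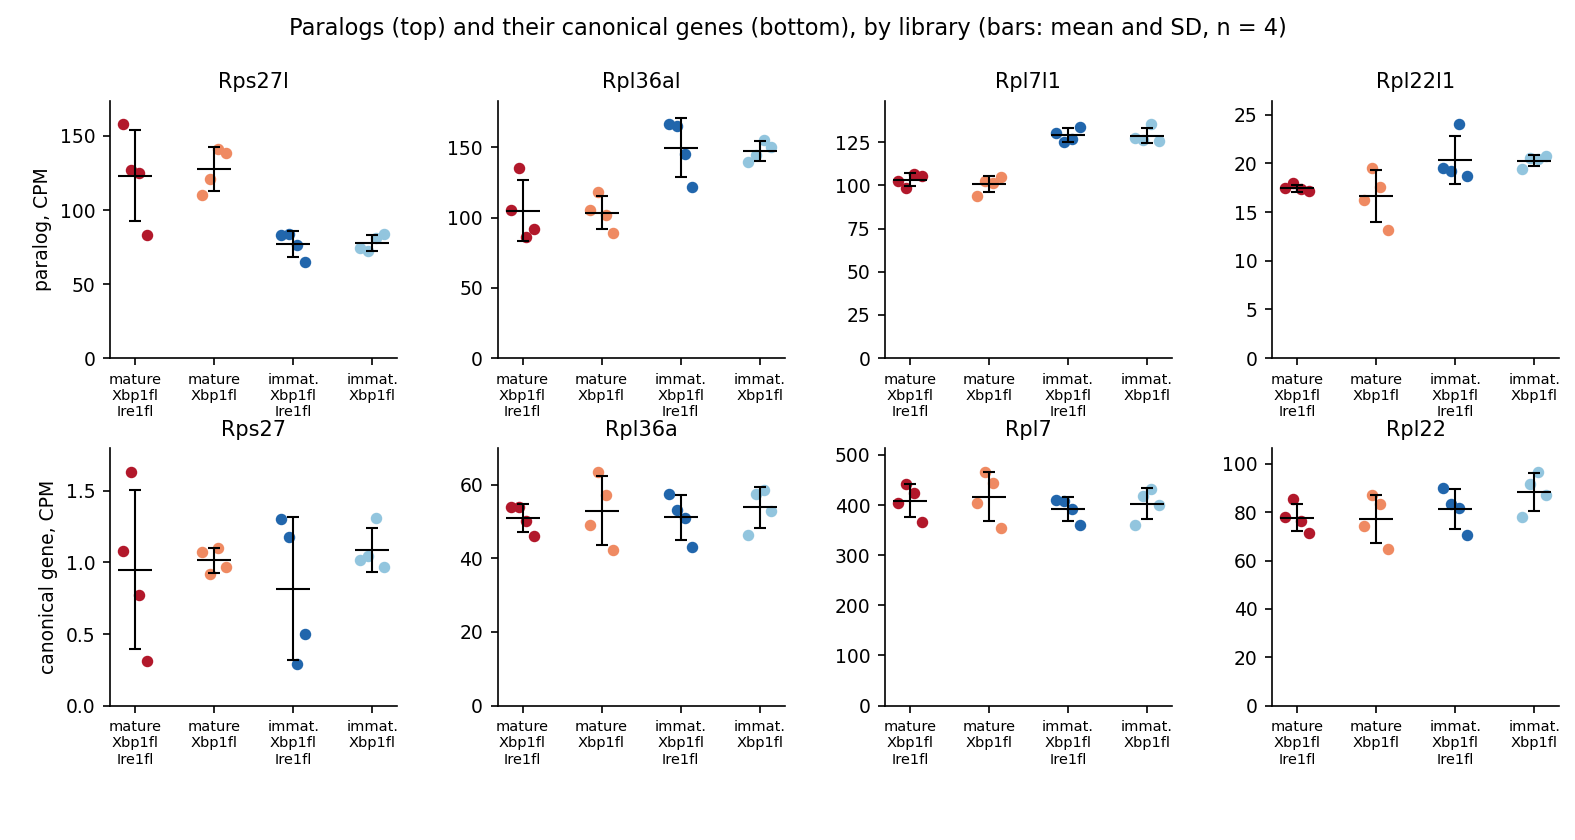
CPM of the 4 paralogs (top) and their canonical genes (bottom) in each library, in 4 groups with the mature groups on the left, with mean and SD of 4 libraries. Rps27l stands higher and Rpl36al, Rpl7l1 and Rpl22l1 lower in both mature groups, while Rpl36a, Rpl7 and Rpl22 occupy similar ranges in all 4 groups and Rps27 has under 2 CPM throughout.

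The canonical partners did not pass: the log2 fold changes were -0.01 for Rpl36a (adjusted p = 0.886), 0.05 for Rpl7 (adjusted p = 0.445) and -0.13 for Rpl22 (adjusted p = 0.105). The balance within each pair was compared as the log2 ratio of paralog to canonical CPM. An exact two-sided permutation test was run over 8 mature and 8 immature libraries, adjusted over 4 pairs. It did not use the replicate numbers or the genotype. Within a genotype, mature and immature libraries of the same number had correlated deviations from their group means (r of 0.26 to 0.52). The p-values take all libraries as exchangeable between stages, which that correlation puts in doubt. The pairs were chosen with the values known. The log2 ratio of Rpl36al to Rpl36a was 0.99 ± 0.17 in mature and 1.49 ± 0.10 in immature libraries, a difference of -0.50. That of Rpl7l1 to Rpl7 was -2.01 ± 0.16 in mature and -1.62 ± 0.11 in immature libraries, a difference of -0.39. Both had an exact p of 0.000155, the smallest that the 12870 splits can give (adjusted p = 0.00031). For Rpl22l1 to Rpl22 the difference was -0.12 (exact p = 0.0618, adjusted p = 0.0618). For Rps27l to Rps27 it was 0.64 (exact p = 0.00389, adjusted p = 0.00519), but Rps27 was scarcely counted. The coding sequences of a pair are 54.0% (Rpl7l1), 68.2% (Rpl22l1), 76.2% (Rps27l) and 87.7% (Rpl36al) identical, and no pair shares a run of 50 bases.

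The stage difference was then taken within each genotype. In Xbp1flIre1fl mice, 1 member was higher (Rps27l, log2 fold change 0.68) and 3 were lower (Rpl36al -0.51, Rpl7l1 -0.32 and Rpl5 -0.22), where 53.5% of all genes were called. In Xbp1fl mice, 1 was higher (Rps27l, 0.72) and 5 were lower (Rpl36al -0.51, Rpl7l1 -0.35, Rpl22l1 -0.29, Rpl5 -0.20 and Rpl3 -0.17), where 56.8% of all genes were called. The genes called in Xbp1fl alone, Rpl22l1 and Rpl3, had log2 fold changes of -0.22 (adjusted p = 0.0942) and -0.13 (adjusted p = 0.139) in Xbp1flIre1fl mice. The test of the difference between genotypes gave 0.07 for Rpl22l1 and 0.04 for Rpl3 on the log2 scale (adjusted p = 0.9999 each). With mature Xbp1flIre1fl replicates 2 and 4 left out, the counts were 2 higher and 6 lower in Xbp1flIre1fl and 1 higher and 8 lower in Xbp1fl mice. Single libraries decided these counts too. Within Xbp1flIre1fl, 8 were lower without mature Xbp1flIre1fl replicate 2, 6 without immature Xbp1flIre1fl replicate 4 and 5 without mature Xbp1fl replicate 2 or 4, which enter through the shared scaling and estimate of spread, and 2 were higher without mature Xbp1flIre1fl replicate 4. Within Xbp1fl, 13 were lower without mature Xbp1fl replicate 2, 10 without immature Xbp1fl replicate 1, 3 without immature Xbp1fl replicate 4 and 2 without mature Xbp1fl replicate 1 or 4 or immature Xbp1fl replicate 2 or 3, and 6 were higher without mature Xbp1fl replicate 4.

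No member's stage difference was called as unequal between the genotypes. The interaction called 0 members in edgeR, DESeq2 and limma, and edgeR called 0% of all genes. At an unadjusted p under 0.05 it had 0 members and 329 of all genes in edgeR. The smallest p among members was 0.361, for Rpl22, followed by Rpl34, Rpl41, Rpl17 and Rps10. For Rps27l the ratio of the 2 folds had a 95% interval of 0.721 to 1.32, and for Rpl7l1 of 0.913 to 1.14. For 76 of 79 members this interval lay within 1.5-fold.

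Between genotypes within a stage, 0 members were called in edgeR, DESeq2 and limma, in mature cells (where edgeR called 0.142% of all genes) and in immature cells (0.134%). At an unadjusted p under 0.05 there were 0 members in either stage, beside 754 of all genes in mature and 573 in immature cells. Almost all members nevertheless had negative log2 fold changes, Xbp1flIre1fl over Xbp1fl: 73 of 79 in mature cells (median -0.07) and 74 of 79 in immature cells (median -0.08), where the medians of all genes were -0.003 and -0.0004. Members are not replicates of a genotype, since they moved together from library to library, as described next. Those deviations are taken from each group's own mean, so they do not include a difference between genotypes. They do show the spread between libraries of a group. Between mature Xbp1fl libraries, the median deviation of the members ran from -0.25 to 0.20. The cause of the shared sign was not tested. The smallest p in mature cells was 0.144 (adjusted p = 0.896), for Rpl14, with 310 ± 25.9 CPM in Xbp1flIre1fl and 343 ± 44.4 in Xbp1fl libraries, an overlap of SDs. Rpl37a, Rpl4, Rps21 and Rpl41 came next. In immature cells it was 0.172 (adjusted p = 1), for Rpl13, with 973 ± 66.1 CPM in Xbp1flIre1fl and 1051 ± 67.1 in Xbp1fl libraries, followed by Rps9, Rps10, Rps21 and Rpl38.

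Within a group, the members moved up and down together from library to library. Deviations from the group mean in log2 CPM were taken for the 76 members with a mean of at least 10 CPM, over all 16 libraries. The median pairwise r was 0.914, and 97.3% of pairs were positive. Each member's r with the mean of the other members had a median of 0.958 and was over 0.9 for 68 of 76 members (89.5%), against 16 of 7805 other genes (0.205%, median -0.007). These are descriptions over libraries that share one scaling and have no p.

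**Figure D4:**
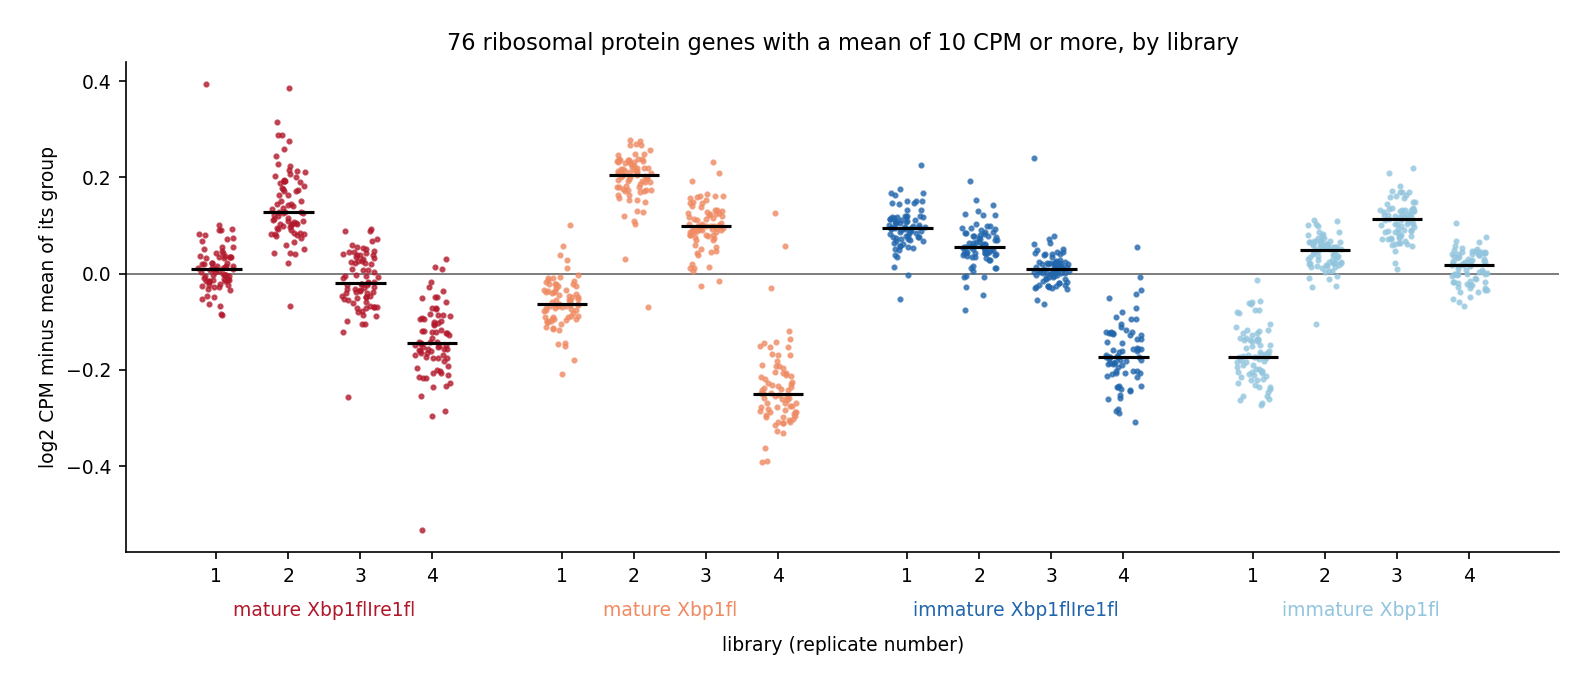
Log2 CPM minus the mean of its group for the 76 members with a mean of at least 10 CPM (points) in each of the 16 libraries, mature groups on the left, with black lines at the median of the points. In most libraries the cloud of points moves as a whole, up in mature Xbp1fl replicate 2 and down in mature Xbp1fl replicate 4.

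Over all 79 members the median deviation was 0.20 in mature Xbp1fl replicate 2, where 77 of 79 lay above their group mean, and -0.25 in mature Xbp1fl replicate 4, where 2 did. In mature Xbp1flIre1fl cells it was 0.13 in replicate 2 and -0.15 in replicate 4. In immature cells it was -0.17 in Xbp1flIre1fl replicate 4 and -0.17 in Xbp1fl replicate 1. The median deviation of all genes stayed between -0.01 and 0.01 in every library. The typical SD within a group was 0.15 for members and 0.14 for all genes with at least 10 CPM.

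Paralogs were among the members that followed the others least: r was -0.20 for Rpl7l1, 0.36 for Rps27l, 0.68 for Rpl22l1 and 0.78 for Rpl36al. The other members under 0.9 were Rpl4 (0.70), Rpl3 (0.82), Rps4x (0.88) and Rpl7a (0.89). Outside the family, genes most like the mean of the members over the 16 libraries included Fau (0.991), whose product releases a small subunit protein, and Rps3a1 and Eef1b2 (0.976 each). Rps3a1 encodes a small subunit protein but its symbol falls outside the naming rule, and it had 683 ± 56.7 CPM in mature and 726 ± 45.8 in immature cells (log2 fold change -0.09, adjusted p = 0.173). They also included Pfdn5 (0.953), a prefoldin subunit, Ssr4 (0.949), a protein of the translocon, and Serf2 (0.946).

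Summed over all members, ribosomal protein genes took 1.95 to 2.60% of counts in mature libraries (median 2.18%) and 2.39 to 2.83% in immature libraries (median 2.66%), ranges that overlap. The means by group were 2.2 ± 0.13% in mature Xbp1flIre1fl, 2.27 ± 0.27% in mature Xbp1fl, 2.56 ± 0.13% in immature Xbp1flIre1fl and 2.70 ± 0.18% in immature Xbp1fl cells (SD, n = 4 each). On the TMM scale mature libraries summed to 24196 ± 2406 CPM and immature libraries to 24339 ± 1784 CPM (SD, n = 8 each). In bulk RNA, fewer cells of a type and less RNA per cell cannot be told apart. The summed small subunit CPM divided by the summed large subunit CPM lay between 0.659 and 0.678 in mature libraries and between 0.657 and 0.680 in immature ones, ranges that coincide almost fully. Rn45s, the ribosomal RNA precursor left in the libraries, took between 0.969 and 1.597% of counts in mature libraries and between 1.40 and 1.80% in immature ones.

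Most genes that build ribosomes fell in mature cells. Of 43 genes of the snoRNPs and the small subunit processome, 41 were lower in mature cells and 2 not called, with a median log2 fold change of -0.49. Dkc1, the pseudouridine synthase of snoRNPs, had 33.1 ± 4.2 CPM in mature and 59.6 ± 3.2 in immature cells (log2 fold change -0.85, SE 0.07, adjusted p = 3.67e-09). Nop56, a core snoRNP protein, had 59.7 ± 5.1 and 90.2 ± 3.5 (-0.59, adjusted p = 1.3e-08), and Nol11 of the processome had 28.7 ± 2.3 and 44.0 ± 2.4 (-0.62, adjusted p = 2.27e-08), mature before immature. The 2 not called were Utp11l (-0.11) and Rrp36 (0.003).

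For maturation of the large subunit, 4 of 57 genes were higher, 48 lower and 5 not called (median -0.48). Rrp15 fell by 0.86 and Wdr12 by 0.88 on the log2 scale (adjusted p = 6.99e-09 and 1.02e-08), both factors of early large subunit assembly. Sbds, which acts in the last step by releasing Eif6, was instead higher, with 64 ± 5.9 CPM in mature and 39.6 ± 3.0 in immature cells (0.69, adjusted p = 2.99e-08). For the small subunit, 1 of 17 genes was higher, 14 lower and 2 not called (median -0.41), with Wdr3 at -0.67, Nob1, the nuclease of the last rRNA cut, at -0.72, and the kinase Riok3 at 0.45 (adjusted p = 3.12e-07).

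Of 15 genes for the chaperones and importins of ribosomal proteins, 2 were higher and 13 lower (median -0.48). Ipo5, an importin, had 111 ± 10 CPM in mature and 164 ± 6.4 in immature cells (log2 fold change -0.56, adjusted p = 2.52e-08). Heatr3, which escorts Rpl5, had 27.0 ± 3.0 and 44.2 ± 3.5 (-0.71, adjusted p = 6.14e-08), and Grwd1, a chaperone of Rpl3, had 15.5 ± 2.4 and 25.2 ± 2.1 (-0.71, adjusted p = 4.28e-07). In the RNA polymerase I list, 3 of 22 were higher, 14 lower and 5 not called (median -0.39). Its catalytic subunit Polr1a had 62.7 ± 10 CPM in mature and 112 ± 8.2 in immature cells (-0.83, adjusted p = 1.08e-07), and the subunit Polr1e and the nucleolar protein Mybbp1a fell by 0.84 and 0.61 (adjusted p = 4.98e-09 and 5.59e-08). Myc, a regulator of ribosome production, was among the 3 that were higher (0.67, adjusted p = 0.00844, and 0.0536 with library sizes only).

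**Figure D5:**
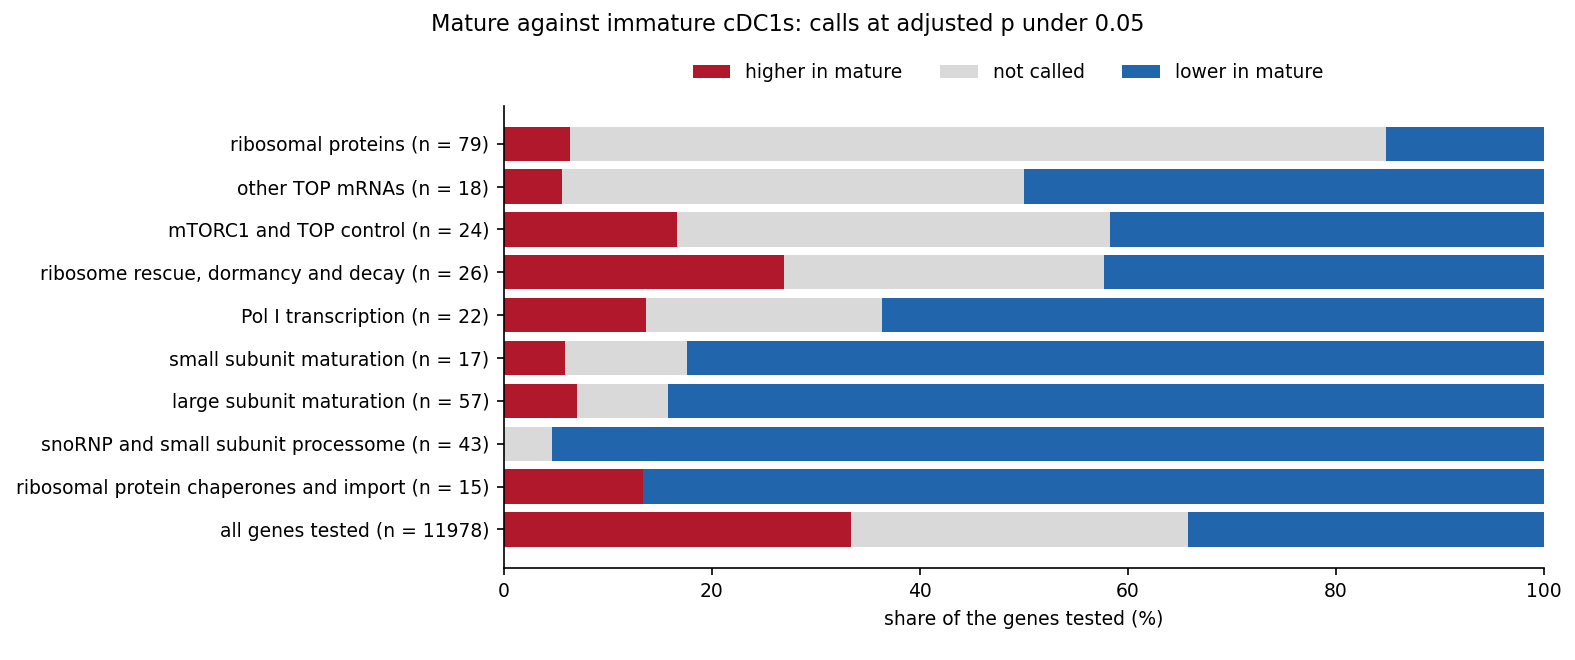
Share of the tested genes of each list called higher (red), not called (grey) or called lower (blue) in mature against immature cDC1s, at an adjusted p under 0.05, with the number of genes beside each name. Ribosomal proteins are mostly grey with 62 of 79 not called, while 41 of 43 snoRNP and processome genes and 48 of 57 genes of large subunit maturation are blue. The bottom bar is all 11978 genes tested.

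Of 18 other mRNAs known for TOP starts, 1 was higher, 9 lower and 8 not called (median -0.14). Eef1a1, the elongation factor that brings tRNA to the ribosome, had 4079 ± 170 CPM in mature and 3949 ± 182 in immature cells and did not pass (0.05, adjusted p = 0.336), but it was lower with library sizes only (-0.18, adjusted p = 0.000849). Eef1d fell by 0.40, Npm1 by 0.38 and Eif3e by 0.30 on the log2 scale (adjusted p = 4.84e-06, 1.1e-05 and 1.09e-05). Over the 17 of these with at least 10 CPM, the median r with the mean of the members was 0.738, against medians of -0.10 to 0.20 over the 5 lists for ribosome construction. Of the 4 fusion and associated genes, 1 was higher, 1 lower and 2 not called (median 0.05). Gnb2l1, the scaffold protein on the small subunit, was lower (-0.29, SE 0.06, adjusted p = 0.000206), and Fau and Rps27a, also a member by its name, did not pass.

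For control of TOP mRNAs by mTORC1, 4 of 24 genes were higher, 10 lower and 10 not called (median -0.07). Beside this list and those that follow, 33.4% of all genes tested were higher and 34.2% lower. Rptor, which brings substrates to mTORC1, had 99.5 ± 20 CPM in mature and 33.0 ± 2.7 in immature cells (log2 fold change 1.59, adjusted p = 2.4e-09). The mTORC1 inhibitor Deptor fell by 0.81 and the substrate Eif4ebp1 by 0.75 (adjusted p = 1.21e-06 and 2.12e-07). Mtor itself (0.09, adjusted p = 0.174) and Larp1 (-0.04, adjusted p = 0.487) did not pass with TMM. With library sizes only Larp1 was lower (-0.26, adjusted p = 4.23e-05) and Mtor still did not pass (-0.14, adjusted p = 0.0585). In the p53 and nucleolar stress list, 5 of 11 were higher, 4 lower and 2 not called (median 0.07), with Cdkn1a, Mdm2, Sesn2 (0.57), Sesn1 (0.39) and Mdm4 (0.35) higher, Nol12 (-0.50), Rrp8 (-0.42), Zfp385a (-0.42) and Trp53 lower, and Bax (0.06) and Ccng1 (0.07) not called. Under library sizes only, Sesn1 (0.16, adjusted p = 0.294) and Mdm4 (0.13, adjusted p = 0.116) did not pass. Bax (-0.16, adjusted p = 0.0140) and Ccng1 (-0.15, adjusted p = 0.0219) were lower under that scaling. For ribosome rescue and decay, 7 of 26 were higher, 11 lower and 8 not called (median -0.05). Gtpbp1 and Gtpbp2, GTPases that act on stalled ribosomes, had log2 fold changes of 2.06 and 1.07 (adjusted p = 9.78e-11 and 7.94e-09), and Edf1, a sensor of collided ribosomes, of 0.68 (adjusted p = 1.03e-07).

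Markers of other cell types and of the cell cycle also differed by stage. All 12 B cell markers were higher in mature libraries, with a summed level of 401 to 1265 CPM against 140 to 202 in immature libraries and no marker at 0. Of 14 macrophage markers 8 were higher (605 to 1265 against 181 to 737 CPM), of 9 T cell markers 6 were higher (64.8 to 119 against 35.8 to 58.9 CPM), and of 6 plasma cell markers 4 were higher and 1 lower (185 to 693 against 180 to 353 CPM), with none of the 3 lists holding a marker at 0. Of 8 erythroid genes, 3 were at 0 in every library and none of the 4 tested was called (4.39 to 27.6 against 3.51 to 26.7 CPM). All 14 cell cycle genes were lower (676 to 1040 against 1367 to 1619 CPM, median log2 fold change -0.84). By their markers the libraries follow the labels: all 12 maturation markers were higher in mature cells (16022 to 35074 against 2415 to 3687 CPM), and the 10 cDC1 identity genes, of which 1 was higher and 7 lower, summed to between 5351 and 8680 CPM in mature libraries and between 9638 and 10953 in immature ones. The part of the other cell types and of the cell cycle in the stage differences of ribosomal protein and ribosome construction genes was not tested.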

How the data were processed

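The authors deposited raw counts per gene symbol, and a table of log2 values whose normalization is not stated, for 16 libraries. Per the submitters' processing notes, reads aligned to build mm10 were handled with TopHat2 (2.1.0) and SAMtools (0.1.19), and the notes also name limma (3.42.2), Trimmomatic (0.35) and FastQC (0.11.4). The read counter, annotation, strandedness and handling of reads shared between genes are not given in the sources used here. The deposited log2 values differed from log2 CPM by an offset in each library (SD over genes at most 0.0298) and served as an alternative only.

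For the counts, edgeR 4.0.16 was run under R 4.3.3: filterByExpr left 11978 of 24421 genes, libraries were scaled by TMM, and a quasi-likelihood model with 1 mean per group (12 residual degrees of freedom, robust) was fitted to all libraries and tested on simulated data. Contrasts were tested by the quasi-likelihood F-test, adjusted by Benjamini-Hochberg over all genes and called at 0.05. SE is the absolute log2 fold change over the square root of F. CPM in the text are TMM-scaled, with SD over libraries. Deviations for correlations used log2(CPM + 0.5).

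Alternatives were DESeq2 1.42.0, limma 3.58.1, other scalings, no filter on low counts, pseudogene rows added to their parent, a replicate block and left-out libraries. Gene lengths, exon overlaps and shared 50-base windows were read from GENCODE for mm10, and start sequences and promoters from RefSeq (GRCm38.p6) with Python 3.11.15, scipy 1.17.1 and Biopython 1.88. Members and lists were chosen with earlier results of these data known. Named members were the paralog pairs, the 5 largest changes each way, the 4 most and 3 least abundant, members of set roles, up to 5 with the smallest p in each genotype contrast and the interaction, and every member not called, with the 3 smallest adjusted p of each other list. The p53 list, Myc, Eef1a1, Fau, Gnb2l1, Utp11l, Rrp36, Mtor and Larp1 were further named for their role or after their values were seen, as were the called members. Some members and list genes are counted throughout but not reported here by name. Total counts are 13948232 to 17000763 per library, and binomial intervals cover counting error only.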

Additional observations from a re-analysis of the deposited data

Results flagged for a closer look

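The named members, the ribosomal protein share of counts and the summed ribosomal protein CPM gave 164 groups of 4 libraries. Of these, 9 held 1 library whose gap to the nearest other exceeded Dixon's 95% critical share of the group's range. Chance gives about 1 in 20 such groups, but members moved together, so the groups are not independent. Most fell in libraries in which nearly all members were low. In immature Xbp1flIre1fl replicate 4 these were Rplp1 (254 CPM, the others 303 to 311), Rplp2 (141, the others 168 to 172), Rps20 (182, the others 215 to 219), Rps28 (87.3, the others 110 to 113) and Rps6 (576, the others 640 to 653). In immature Xbp1fl replicate 1 it was Rps10 (166 CPM, the others 200 to 202). Rps9 was low in mature Xbp1flIre1fl replicate 4 (615 CPM, the others 698 to 713). Rpl4 was high in mature Xbp1fl replicate 2 (978 CPM, the others 872 to 889), and Rpl22l1 was high in immature Xbp1flIre1fl replicate 3 (24 CPM, the others 18.7 to 19.5).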

How the results depend on the processing

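The number of ribosomal protein genes called by stage depended on the scaling more than on any other choice. Upper quartile scaling gave 1 member higher and 39 lower, with 17 lower within Xbp1flIre1fl and 24 lower within Xbp1fl. Library sizes only gave 1 higher and 62 lower, with 47 lower within Xbp1flIre1fl and 54 within Xbp1fl. Under library sizes only, 29 of the 79 members took the other sign, 15 of them among the 39 named for a rule. Of these 15, 8 were called with TMM or with library sizes only: Rpl13 -0.21, Rpsa -0.17, Rpl7 -0.17, Rplp0 -0.14, Rps9 -0.095, Rpl19 -0.056, Rps20 -0.024 and Rps28 -0.023. The median of all genes was -0.23 under that scaling and -0.01 with TMM. It also gave 0 fusion genes higher and 2 lower, 1 chaperone or import gene higher, 0 Pol I genes higher, 2 large subunit maturation genes higher, 0 other TOP genes higher and 17 lower, 2 mTORC1 genes higher and 17 lower, 3 nucleolar stress genes higher, 4 rescue genes higher and 19 lower, and 1 T cell marker lower. TMM factors without the ribosomal protein genes gave 3 members higher, and no filter on low counts gave 2. DESeq2 gave 7 higher and 10 lower, and limma on the deposited log2 values 4 and 11. Leaving out 1 library at a time gave 1 to 10 higher and 9 to 18 lower, 1 to 2 higher and 2 to 8 lower within Xbp1flIre1fl, and 1 to 6 higher and 2 to 13 lower within Xbp1fl. Without mature Xbp1flIre1fl replicates 2 and 4, 2 members were higher and 6 lower within Xbp1flIre1fl, and 8 were lower within Xbp1fl. Replicate numbers were not treated as pairs in the main fits. Over all groups, 13 of 24 pairs with the same number had deviations correlated over 0.1 (median 0.15, range -0.13 to 0.52). Of pairs with different numbers, 18 of 72 did (median -0.096). Within a genotype, however, each mature library was correlated with the immature library of its own number, at 0.26 to 0.52. With other numbers that correlation was at most 0.23. The main stage tests did not use this pairing. With a replicate block, 8 members were higher by stage, 2 higher and 6 lower within Xbp1flIre1fl, and 3 higher and 9 lower within Xbp1fl. That block tied each number across genotypes as well as stages, so it is not a block within genotype. Between genotypes, libraries of the same number were correlated at -0.13 to 0.37. Starts within 5 bases gave TOP shares of 49.15% of members and 21.16% of all genes. Lengths of principal transcripts, an alternative chosen after seeing the data, gave mature levels of 1070 CPM per kb for Rplp0 and 1314 for Rpl13. The cause of these changes was not tested. Rps27l, Rpl36al and Rpl7l1 kept their direction and call in each alternative run for them, and the interaction and genotype contrasts called 0 members in each. The few counts of Rps27, Rpl30 and Rpl34 limit what depth can show for them.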
